A study of Mus musculus with 33 samples.

Results

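The genes described here are 38 mouse genes that build the cardiac sarcomere or move calcium in the cardiomyocyte: 6 of the thin filament, 5 of the thick filament (titin, Ttn, among them), 18 of the Z-disc and M-band, and 9 of calcium handling and electrical coupling. They were taken by gene symbol from 3 tables of normalized counts, each with 32245 genes. All 38 were present and passed the filter on low values in every table. Values given per library are normalized counts, and tables are not compared in level.

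RNA, given in the labels as nuclear RNA, was sequenced from mouse cardiomyocytes of 4 lines, and a cardiomyocyte-specific Ptpmt1 knockout is part of each. Ptpmt1 is the mitochondrial phosphatase whose product, phosphatidylglycerol, is turned into cardiolipin. The FST table holds 3 libraries each of double animals (cardiomyocyte-specific Ptpmt1 knockout plus Eif2a mutant), Ptpmt1 knockout only, Eif2a mutant only and control. The PHT table holds 2 double libraries (cardiomyocyte-specific Ptpmt1 knockout plus Hri knockout), 3 of the Ptpmt1 knockout only, 2 of the Hri knockout only, which its label calls cardiomyocyte-specific, and 2 controls. The PTGC table holds 3 double libraries (cardiomyocyte-specific Ptpmt1 knockout plus Gcn2 knockout) and 3 controls. Eif2a is written Eif2alpha in one label and is the alpha subunit of the initiation factor eIF2, while Hri and Gcn2 are kinases that phosphorylate it. These 27 libraries of 33 samples were analysed, and the 6 samples of the line with the Ptpmt1 knockout alone are not analysed here. The sources used here do not give the Eif2a mutation, what drove the deletion in cardiomyocytes, the strain, the age or the alleles of the controls. The labels do not say whether the libraries of a group came from separate animals, so p-values measure only the spread between these libraries.

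In the sarcomere, actin thin filaments slide past myosin thick filaments. The troponin complex and tropomyosin open the thin filament to myosin when calcium binds. The Z-disc anchors thin filaments, the M-band holds thick filaments in register, and titin spans both as a spring. Each beat begins when calcium enters through the L-type channel (Cacna1c) and opens the ryanodine receptor (Ryr2) of the sarcoplasmic reticulum. The pump SERCA2 (Atp2a2), held back by phospholamban (Pln), returns calcium to the store, and the exchanger Slc8a1 expels it from the cell. Loss of several of these proteins causes cardiomyopathy or arrhythmia.

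Per kilobase of exon (GENCODE M21 on GRCm38), the level in FST controls was highest for Actc1, with 47071 ± 1929 normalized counts per kilobase (mean ± SD, n = 3), followed by Myl2 with 27430.5 ± 719, Tnnt2 with 15742 ± 662, Myl3 with 10308 ± 568 and Tnnc1 with 7839 ± 742. The lowest levels per kilobase were 66.3 ± 4.68 for Cmya5, 2.05 ± 0.0533 for Xirp2 and 1.07 ± 1.07 for Myom2. The PHT and PTGC controls had the same 5 genes at the top in the same order. Xirp2 and Myom2 had so few reads that their fold changes say little. The 38 genes together held 6.69 to 8.96% of the signal of an FST library, of which Ttn alone held 3.03 to 5.39%.

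Promoter windows are shown here for the genes that passed the test in any comparison, since these carry the differences described below; Xirp1, the other such gene, had no entry. RefSeq windows of GRCm38.p6, from 250 bases before to 50 after each start, were matched for 33 of 38 genes, leaving Atp2a2, Tcap, Xirp1, Trdn and Myom2. A total of 7 kinds of short motif were searched on both strands, and a match is a string of letters and not a shown binding site. Capitals in the lines below mark every match in these 4 windows: an E-box (CANNTG, its own reverse complement) in each, GATAA or its reverse complement in Cmya5 and Des, and a MEF2 site in Synpo2l. No match in these 4 windows overlapped another.
Lmod2, chr6:24597521-24597820, plus strand: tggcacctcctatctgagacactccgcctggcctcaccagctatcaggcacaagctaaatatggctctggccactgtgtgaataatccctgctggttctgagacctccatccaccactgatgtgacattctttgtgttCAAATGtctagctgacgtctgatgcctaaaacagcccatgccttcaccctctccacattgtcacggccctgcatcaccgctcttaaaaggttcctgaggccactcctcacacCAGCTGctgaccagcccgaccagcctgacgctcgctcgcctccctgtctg
Cmya5, chr13:93144675-93144974, minus strand: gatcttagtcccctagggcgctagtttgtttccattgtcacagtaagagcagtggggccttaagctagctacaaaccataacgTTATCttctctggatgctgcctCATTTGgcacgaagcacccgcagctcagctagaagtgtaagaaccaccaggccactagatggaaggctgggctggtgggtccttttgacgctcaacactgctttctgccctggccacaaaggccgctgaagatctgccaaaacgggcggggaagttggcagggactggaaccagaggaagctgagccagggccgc
Des, chr1:75360042-75360341, plus strand: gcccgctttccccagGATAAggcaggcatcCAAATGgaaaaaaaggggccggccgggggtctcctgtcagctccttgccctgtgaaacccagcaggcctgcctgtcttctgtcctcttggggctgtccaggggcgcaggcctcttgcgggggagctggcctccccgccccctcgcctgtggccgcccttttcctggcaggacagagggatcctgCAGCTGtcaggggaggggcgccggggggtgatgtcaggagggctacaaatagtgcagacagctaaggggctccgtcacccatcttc
Synpo2l, chr14:20668305-20668604, minus strand: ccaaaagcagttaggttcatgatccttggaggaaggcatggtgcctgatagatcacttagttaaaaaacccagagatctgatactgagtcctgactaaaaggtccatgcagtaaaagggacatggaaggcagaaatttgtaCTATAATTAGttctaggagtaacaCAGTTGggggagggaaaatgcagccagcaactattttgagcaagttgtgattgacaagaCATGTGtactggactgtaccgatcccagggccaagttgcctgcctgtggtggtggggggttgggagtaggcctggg
Each of the 33 genes was counted once, at its first listed start, while the shares over all windows count every listed start of every gene. Synpo2l has 2 listed starts, of which the first is shown. The MEF2 site was in 7 of the 33 windows (21.2%), against 3.19% of all 32851 RefSeq windows. The CArG box was in 4 (12.1%, against 1.63%), CATTCC in 8 (24.2%, against 14.7%), GATAA in 15 (45.5%, against 25.4%) and CANNTG in 30 (90.9%, against 72.3%). TATAAA was in 2 (6.06%, against 13.6%), Actc1 and Pln. TGATGNAA, the core of composite C/EBP and Atf4 sites, was in 1, that of Tnni3k (3.03%, against 3.97%).

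Depth was 1887978 to 12583868 reads in FST, 10739569 to 19405261 in PHT and 10795644 to 19326112 in PTGC. In FST, double replicate 2 had the lowest depth, and Eif2a mutant replicate 1 had 15157 genes with reads, against up to 18631 in the other FST libraries; these 2 libraries stand apart. The labelled knockout was visible: Ptpmt1 had 46.7, 39.8 and 49.2 in doubles, 40.6, 31.3 and 34.7 in Ptpmt1 knockout libraries, 149.7, 163 and 158 in Eif2a mutants, and 158, 156 and 175 in controls. In PHT it had 76.7 and 78.1 in doubles, 64.8, 41.7 and 40.0 in Ptpmt1 knockout libraries, 245 and 284 in Hri knockout libraries, and 241 and 289 in controls, and in PTGC 66.1, 74.5 and 73.0 in doubles, and 349, 288 and 348 in controls. Its log2 fold change against control was -2.17 ± 0.17 in FST and -2.44 ± 0.22 in PHT Ptpmt1 knockout libraries, and -2.18 ± 0.14 in PTGC doubles (adjusted p = 1.12e-05, 6.17e-05 and 3.90e-06). In FST and PHT doubles it was -1.83 ± 0.17 and -1.76 ± 0.24 (adjusted p = 2.40e-04 and 0.0136, limma). Doubles differed from Ptpmt1 knockout libraries by 0.34 ± 0.17 in FST and 0.69 ± 0.22 in PHT (adjusted p = 0.396 and 0.321, limma). The cardiomyocyte markers Myh6 and Myh7 that are not among the 38 had at least 17866 and 50818 normalized counts in each FST library. Their log2 fold changes in FST Ptpmt1 knockout against control were -0.35 ± 0.20 and -0.47 ± 0.13 (adjusted p = 0.463 and 0.144, limma). In FST doubles against control they were -0.38 ± 0.20 and -0.32 ± 0.13, and in Eif2a mutants -0.22 and -0.17. In PHT Ptpmt1 knockout libraries they were 0.27 and -0.21, and in PTGC doubles 0.0066 and 0.055. Markers of other cells were also present in all libraries, with sums in FST of 10306 to 13533 for 9 fibroblast genes in doubles, 11682 to 23112 in Ptpmt1 knockout libraries, 9467 to 13204 in Eif2a mutants and 11191 to 13290.3 in controls. Of 10 skeletal muscle markers, 3 to 7 were at 0 in an FST library, Myod1 in all of them. In these bulk samples fewer cells of a type and less RNA per cell cannot be told apart. Sex, read from Xist and Y-linked genes, was male in 2 of 3 FST doubles, 3 of 3 Ptpmt1 knockout libraries, 3 of 3 Eif2a mutants and 1 of 3 controls.

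In FST, Ptpmt1 knockout against control gave 4 calls among the 38 genes, all lower. Desmin (Des), Xirp1, Synpo2l and Cmya5, all proteins at or around the Z-disc and intercalated disc, fell, to 71.2% of the control level for Des, 68.5% for Xirp1, 66.8% for Synpo2l and 67.4% for Cmya5. None rose. These 4 of 38 stand against 0.18% of all 13896 genes tested that fell and 0.504% called in either direction. Log2 fold changes, on the log2(value + 1) scale, were below 0 in 34 of 38, against 51.0% of all genes, with a median of -0.24, against -0.0052 over all genes. Leaving out 1 library in turn gave that median as -0.36 without Ptpmt1 knockout replicate 3 to -0.20 without Ptpmt1 knockout replicate 2. All Ptpmt1 knockout libraries lay below all controls for 14 of 38 genes, against 9.48% of all genes, and above them for 1, Xirp2, against 9.61%. All 38 genes together held 6.90 to 8.53% of the signal in Ptpmt1 knockout libraries and 7.46 to 8.15% in controls, with overlap. Without Ttn, the members held 3.25 to 3.46% of the signal in Ptpmt1 knockout libraries and 3.79 to 3.85% in controls.

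**Figure D1:**
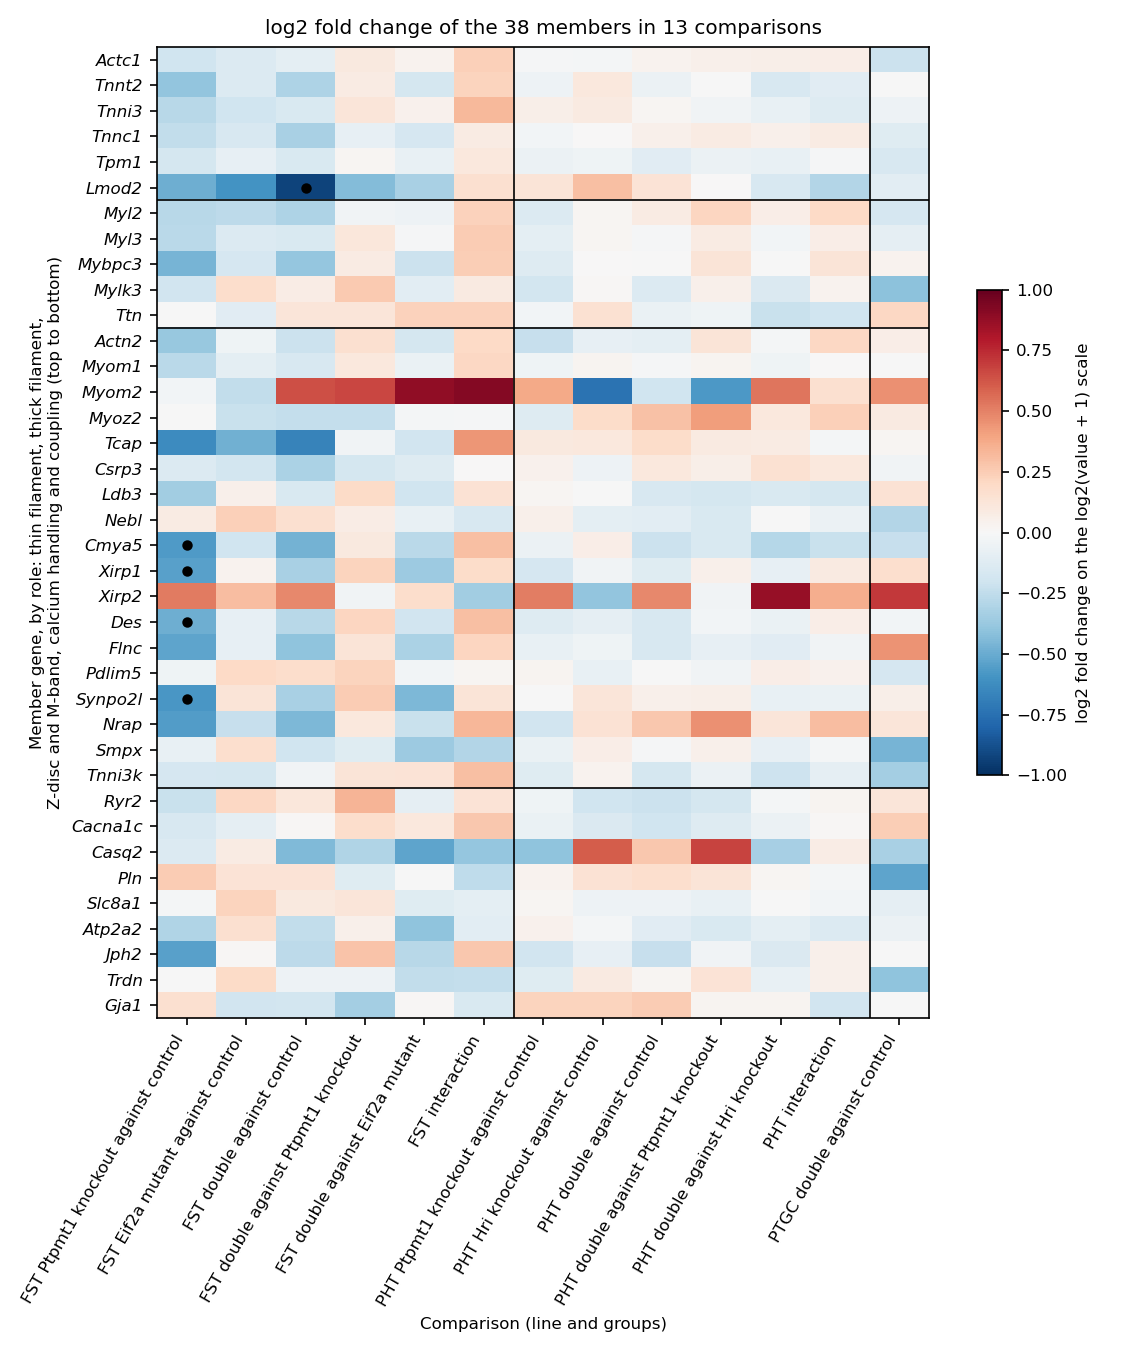
Log2 fold change of each of the 38 genes (rows, grouped by role) in the 13 comparisons (columns), as colour; a black dot marks a call at an adjusted p under 0.05 (limma). The 5 dots lie in 2 FST columns: Des, Xirp1, Synpo2l and Cmya5 in Ptpmt1 knockout against control, and Lmod2 in double against control.

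By role, the median log2 fold change of Ptpmt1 knockout against control in FST was -0.26 for the thin filament, -0.27 for the thick filament, -0.31 for the Z-disc and M-band and -0.14 for calcium handling and coupling. The number below 0 was 6 of 6, 5 of 5, 16 of 18 and 7 of 9 in that order, and the 4 called genes were all in the Z-disc and M-band group. At an unadjusted p under 0.05, 20 of 38 were lower, against 6.79% of all genes, and 0 were higher.

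The set of called genes depended on single libraries and on the fit. It was 0 of 38 without control replicate 2 (0.151% of all genes called), control replicate 3 (0.245%) or Ptpmt1 knockout replicate 2 (0.259%). It was 1 (Des) without control replicate 1 (0.18%), 2 (Cmya5 and Xirp1) without Ptpmt1 knockout replicate 1 (0.317%), and 16 without Ptpmt1 knockout replicate 3 (6.17%). A term for sex left 0 (0.151% of all genes called), with log2 fold changes of -0.38 for Des, -0.52 for Xirp1, -0.59 for Synpo2l and -0.58 for Cmya5. A fit to these 2 groups alone left the 4 log2 fold changes as they were and also called 0 of 38 (0.194% of all genes). On recovered reads edgeR called 5 (0.662% of all genes) and DESeq2 13 (2.54%), all lower. The part of other cells was not tested: the Ptpmt1 knockout and control sums were 5215 to 17763 and 5733 to 22539 for erythroid markers, 10646 to 16067 and 13678 to 20517 for mural markers, and 11809.7 to 13390.2 and 12217 to 13869.5 for endothelial markers. Of the fibroblast markers 8 of 8 tested had log2 fold changes above 0, with a median of 0.26, of the erythroid markers 10 of 10 were below 0, with a median of -0.63, and of the macrophage markers 7 of 8 were above 0, with a median of 0.53. Ptpmt1 knockout replicate 3 stands apart in both the fibroblast and the macrophage sums. The fibroblast sums were 12163, 11682 and 23112 in Ptpmt1 knockout replicates 1, 2 and 3, and 11191 to 13290.3 in controls, so that replicates 1 and 2 lay inside the control range. The macrophage sums were 369.9, 287 and 794 in the same replicates, and 318 to 453 in controls, with replicate 3 above every control.

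Des (chromosome 1, 75360329 to 75368579, plus strand on GRCm38) encodes the intermediate filament that ties neighbouring Z-discs together. It had 5454, 5091 and 4701 in doubles, 4374, 4307 and 4421 in Ptpmt1 knockout libraries, 5859.8, 5854 and 5632 in Eif2a mutants, and 5627, 5896 and 6956 in controls. The 3 Ptpmt1 knockout libraries lay close together, below every other FST library, and the doubles lay between them and the controls. The log2 fold change of Ptpmt1 knockout against control was -0.49 ± 0.086 (SE, adjusted p = 0.0165), a level of 71.2% of control with a 95% interval of 62.7 to 80.9%. It passed the threshold under 7 of 13 alternatives, with adjusted p-values of 5.10e-06 to 0.347. Xirp1 (chromosome 9, 120013755 to 120023598, minus strand) encodes an actin-binding protein with Xin repeats at the intercalated disc. It had 2054, 2316 and 1903 in doubles, 1904, 1534 and 1964 in Ptpmt1 knockout libraries, 2698, 2697 and 2657 in Eif2a mutants, and 2489.7, 2528 and 2834 in controls. All Ptpmt1 knockout libraries and all doubles lay below the controls, while the Eif2a mutants lay inside the control range. The Ptpmt1 knockout log2 fold change was -0.55 ± 0.10 (adjusted p = 0.0227), and 7 of 13 alternatives kept it past the threshold, at 4.88e-05 to 0.278.

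Synpo2l (chromosome 14, 20658946 to 20668354, minus strand) encodes a Z-disc protein of the podin family that binds alpha-actinin. It had 2409, 2585 and 2238 in doubles, 2219.5, 1567 and 2343 in Ptpmt1 knockout libraries, 3118, 3432 and 3317 in Eif2a mutants, and 3039, 3089 and 2908 in controls. Ptpmt1 knockout libraries and doubles were below the controls, and the 3 Eif2a mutants were above them. The log2 fold change of Ptpmt1 knockout against control was -0.58 ± 0.12 (adjusted p = 0.0462), past the threshold in 5 of 13 alternatives, whose adjusted p-values ran over 6.53e-04 to 0.336. Cmya5 (chromosome 13, 93040713 to 93144724, minus strand) encodes myospryn, a large protein that binds desmin. It had 592, 597 and 514 in doubles, 608, 462 and 526 in Ptpmt1 knockout libraries, 793, 659 and 609.6 in Eif2a mutants, and 834, 799 and 726 in controls. Every Ptpmt1 knockout and every double lay below the lowest control, and the Eif2a mutants straddled it. Its log2 fold change was -0.57 ± 0.12 (adjusted p = 0.0493), past the threshold in 6 of 13 alternatives, at 0.00139 to 0.347. In the annotation 2570 exonic bases of Cmya5 overlap the antisense genes Gm4814 and A630019I02Rik, and 220 of Des overlap Gm15179, and reads of such pairs cannot be told apart without the strand setting.

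**Figure D2:**
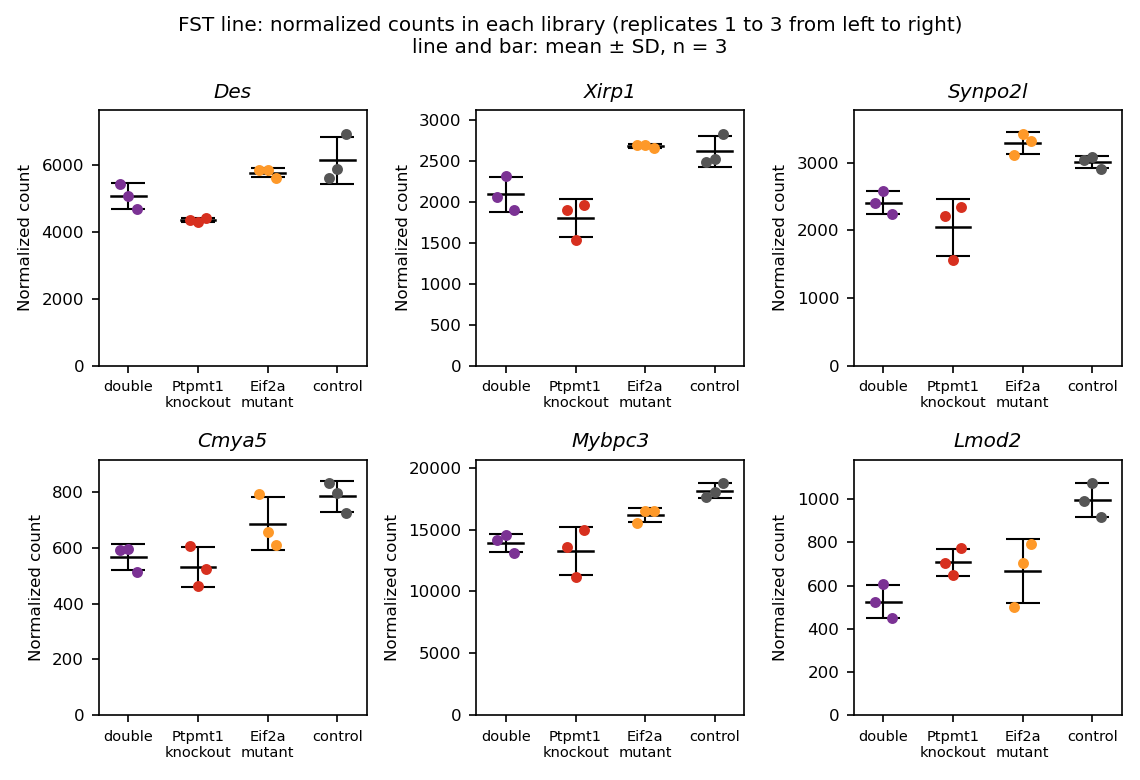
Normalized counts of Des, Xirp1, Synpo2l, Cmya5, Mybpc3 and Lmod2 in the 12 FST libraries, by group (double, Ptpmt1 knockout, Eif2a mutant, control); points are libraries, lines are group means and bars are ± SD. The Ptpmt1 knockout points lie below the control points in all 6 panels, and for Lmod2 the doubles are the lowest group by mean.

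On the thin filament in FST, cardiac alpha-actin (Actc1), the actin of the filament itself, had 66384, 68238 and 59810.5 in doubles, 57844, 62551 and 61200.0 in Ptpmt1 knockout libraries, 54877, 68493 and 66478 in Eif2a mutants, and 69246, 66540.5 and 72220.2 in controls. Its Ptpmt1 knockout libraries lay below all controls, with a log2 fold change of -0.20 ± 0.12 (adjusted p = 0.507). Troponin T (Tnnt2), which fixes the troponin complex to tropomyosin, had 15233, 16074 and 16777 in doubles, 14576, 13087 and 18122 in Ptpmt1 knockout libraries, 18330.5, 18158 and 17689 in Eif2a mutants, and 20290.5, 20434 and 18920.2 in controls. All 9 mutant libraries lay below all controls, and the log2 fold change was -0.39 ± 0.11 in Ptpmt1 knockout libraries (adjusted p = 0.127) and -0.31 ± 0.11 in doubles (adjusted p = 0.334). Troponin I (Tnni3), the inhibitory subunit, had 2527, 2510.3 and 2654 in doubles, 2031, 2201 and 2906 in Ptpmt1 knockout libraries, 2204, 2675 and 2606 in Eif2a mutants, and 2676, 2783 and 3107 in controls. Ptpmt1 knockout replicate 3 reached into the control range, and the log2 fold change was -0.28 ± 0.12 (adjusted p = 0.313). The calcium sensor troponin C (Tnnc1) and tropomyosin (Tpm1) had log2 fold changes of -0.25 and -0.18 in Ptpmt1 knockout libraries, with overlap of the groups for both.

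Leiomodin 2 (Lmod2, chromosome 6, 24597762 to 24605414, plus strand), which promotes elongation of the thin filament at its pointed end, had 525, 605 and 448 in doubles, 705, 647 and 774 in Ptpmt1 knockout libraries, 502, 706 and 794 in Eif2a mutants, and 993, 1076 and 918 in controls. All 9 mutant libraries were below the 3 controls, and the doubles included the lowest library. Lmod2 fell in doubles to 52.6% of control (95% interval 42.3 to 65.4%), a log2 fold change of -0.93 ± 0.15 (adjusted p = 0.0194). Neither single mutant passed by limma, with -0.49 ± 0.15 in the Ptpmt1 knockout (adjusted p = 0.172) and -0.60 ± 0.15 in the Eif2a mutant (adjusted p = 0.303). DESeq2 called Lmod2 lower in both, at -0.49 and -0.57 (adjusted p = 0.0248 and 0.0376, with 2.54% and 0.338% of all genes called). The double differed from the Ptpmt1 knockout by -0.44 ± 0.15 (adjusted p = 0.199), and the interaction was 0.16 ± 0.21 (adjusted p = 0.873).

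On the thick filament in FST, the ventricular regulatory light chain (Myl2) had 27482, 26279 and 28660.0 in doubles, 27038, 26706 and 30860.3 in Ptpmt1 knockout libraries, 29124, 28460.0 and 27689.9 in Eif2a mutants, and 34543, 34678 and 33068 in controls. The 9 mutant libraries all lay below the controls, with log2 fold changes of -0.31 in doubles, -0.28 in Ptpmt1 knockout libraries and -0.26 in Eif2a mutants. Myosin-binding protein C (Mybpc3), which holds myosin heads near the filament, had 14125, 14527 and 13132 in doubles, 13620.2, 11181 and 14966 in Ptpmt1 knockout libraries, 15541, 16494 and 16465 in Eif2a mutants, and 17626, 18074 and 18781 in controls. Again no mutant library reached the lowest control, and the Ptpmt1 knockout log2 fold change was -0.46 ± 0.10, with an adjusted p of 0.0567 by limma and 0.0456 by edgeR. Titin (Ttn) had 306466, 449365 and 311114 in doubles, 420847, 288177 and 274791 in Ptpmt1 knockout libraries, 376420.0, 287990.0 and 245567 in Eif2a mutants, and 292352, 318803 and 358998 in controls. Its 4 groups overlapped throughout, and the Ptpmt1 knockout log2 fold change was -0.0019 ± 0.23. The essential light chain Myl3 had -0.27 and the cardiac light chain kinase Mylk3 had -0.19, with overlap for both.

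At the Z-disc in FST, alpha-actinin 2 (Actn2), which cross-links actin there, had 8394, 8799 and 7950.4 in doubles, 8234, 6359 and 8001 in Ptpmt1 knockout libraries, 9120.2, 10298 and 9062 in Eif2a mutants, and 9921, 9528 and 9788 in controls. Ptpmt1 knockout libraries and doubles lay below the controls, and the Ptpmt1 knockout log2 fold change was -0.38 ± 0.10 (adjusted p = 0.111). Telethonin (Tcap), the cap of the titin end in the Z-disc, had 173, 194 and 156 in doubles, 138, 160.1 and 256 in Ptpmt1 knockout libraries, 231, 195 and 172 in Eif2a mutants, and 283, 304 and 245 in controls. Its log2 fold change of -0.63 ± 0.19 was the most negative of the 38 in Ptpmt1 knockout libraries, but replicate 3 lay above the lowest control and the adjusted p was 0.179. Without that library its log2 fold change was -0.89 (adjusted p = 0.00665), and across the alternatives it was called under that one only. Filamin C (Flnc), an actin cross-linker, and Ldb3, a PDZ and LIM protein that binds alpha-actinin, had -0.53 and -0.35 with no overlap, and the M-band protein Myom1 had -0.27 with no overlap. Nrap, which takes part in myofibril assembly, had -0.56 with overlap. The most positive of the 38 was Xirp2, with 25.5, 32.2 and 54.9 normalized counts in Ptpmt1 knockout libraries and 23.9, 24.9 and 25 in controls, a log2 fold change of 0.52 ± 0.35 (adjusted p = 0.571). The other 7 genes of this group (Myom2, Myoz2, Csrp3, Nebl, Pdlim5, Smpx and Tnni3k) had log2 fold changes of -0.17 to 0.086, with overlapping groups.

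Among calcium handling genes in FST, the pump gene Atp2a2 had 12519, 12560.4 and 11676 in doubles, 13264, 10194 and 12139 in Ptpmt1 knockout libraries, 16674, 16320.4 and 15674 in Eif2a mutants, and 14523, 14234 and 14779 in controls. Ptpmt1 knockout libraries and doubles lay below the controls and Eif2a mutants above them. Its log2 fold changes were -0.24 ± 0.094 in doubles, -0.30 ± 0.094 in Ptpmt1 knockout libraries and 0.16 ± 0.094 in Eif2a mutants, none of which passed (adjusted p = 0.403, 0.187 and 0.677). Its inhibitor Pln had 4561, 4689 and 4459.9 in doubles, 5197, 4415 and 5329 in Ptpmt1 knockout libraries, 4401, 4742 and 4614 in Eif2a mutants, and 4836, 5098 and 2934 in controls. Control replicate 3 was the lowest of the 12, all groups overlapped, and the Ptpmt1 knockout log2 fold change was 0.25 ± 0.15 (adjusted p = 0.504). In the annotation 1644 exonic bases of Pln overlap the antisense gene Gm47644.

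Ryr2, the release channel of the sarcoplasmic reticulum, had 12583, 14730.4 and 13109 in doubles, 12967, 10948 and 8423 in Ptpmt1 knockout libraries, 15702, 14204 and 13159 in Eif2a mutants, and 11989.5, 11915 and 13350.4 in controls. Ptpmt1 knockout replicate 3 was the lowest library, and the groups overlapped in each comparison, with -0.22 ± 0.13 for Ptpmt1 knockout against control and 0.34 ± 0.13 for double against Ptpmt1 knockout (adjusted p = 0.254). Cacna1c, the pore of the L-type channel, had 3862, 5277 and 4467 in doubles, 4566, 4101 and 3381 in Ptpmt1 knockout libraries, 4053, 4375 and 4126 in Eif2a mutants, and 4779, 4354 and 4261 in controls. No group stood apart. Calsequestrin 2 (Casq2), the calcium buffer of the store, had 257, 229.8 and 222 in doubles, 240.2, 165 and 625 in Ptpmt1 knockout libraries, 377, 339 and 309.5 in Eif2a mutants, and 407, 454 and 179 in controls. Its highest library was Ptpmt1 knockout replicate 3, and control replicate 3 was lower than any library except Ptpmt1 knockout replicate 2, so the Ptpmt1 knockout and control ranges overlapped. All doubles lay below all Eif2a mutants, by -0.53 ± 0.38 (adjusted p = 0.690). The summed erythroid markers had the same 2 libraries out of step, with 5215, 5637 and 17763 in the Ptpmt1 knockout and 17072, 22539 and 5733 in controls; their part was not tested.

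The sodium-calcium exchanger Slc8a1 had 28519, 34406 and 27169.5 in doubles, 30539, 28594 and 23889 in Ptpmt1 knockout libraries, 37684, 30826 and 29469 in Eif2a mutants, and 28713, 27643 and 27337 in controls. Only the Eif2a mutants lay clear of the controls, above them, with 0.22 ± 0.13 (adjusted p = 0.669). Connexin 43 (Gja1), the main gap junction protein of ventricular muscle, had 2836, 3443 and 3160.2 in doubles, 3647, 3370.1 and 5130.3 in Ptpmt1 knockout libraries, 3062, 3069.7 and 3226 in Eif2a mutants, and 3907, 4149.9 and 2793 in controls. The groups overlapped, and double against Ptpmt1 knockout gave -0.34 ± 0.15 (adjusted p = 0.330). Junctophilin 2 (Jph2), which holds the store close to the cell membrane, had -0.54 in Ptpmt1 knockout libraries with overlap, and triadin (Trdn), which links calsequestrin to the release channel, had -0.0072.

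**Figure D3:**
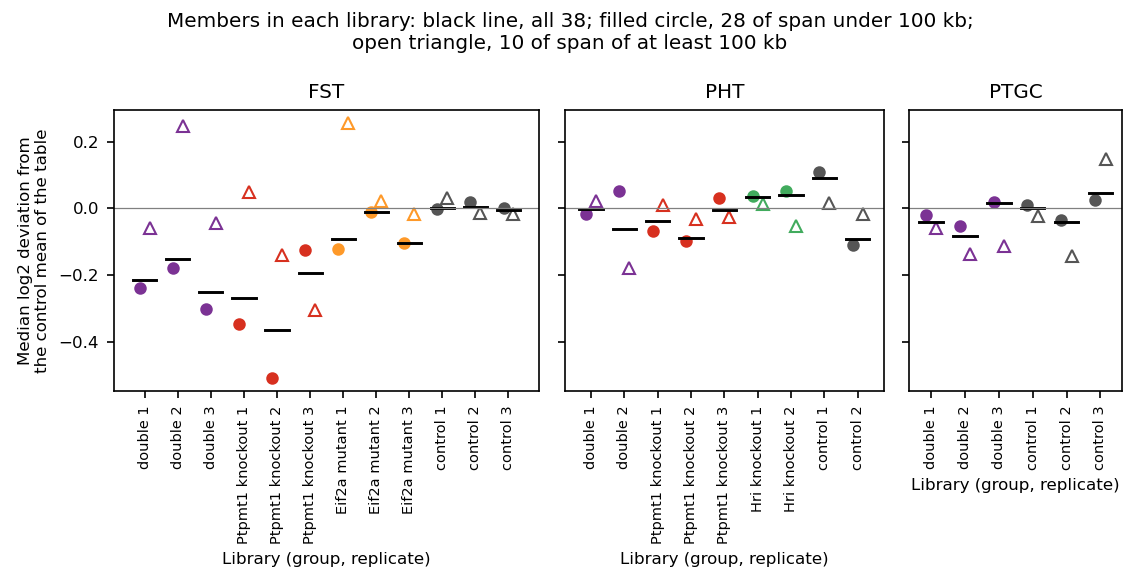
Median over genes of the log2 deviation from the control mean of the same table, for each library, over all 38 genes (line), over the 28 genes that span less than 100 kb (filled circles) and over the 10 that span 100 kb or more (open triangles). In FST the median of the 38 is -0.37 to -0.19 in Ptpmt1 knockout libraries, -0.25 to -0.15 in doubles, and -0.11 to -0.01 in Eif2a mutants; in PHT and PTGC the library medians lie between -0.09 and 0.09.

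Double against control in FST shares its controls with the comparison above, so the values are given side by side and not as separate support. Lmod2 was the 1 gene of 38 called, against 0.144% of all genes (0.072% lower). Log2 fold changes were below 0 for 28 of 38 (all genes, 50.7%), with a median of -0.19, and 16 of 38 genes had all doubles below all controls, against 9.87% of all genes. Des, Xirp1, Synpo2l and Cmya5 had log2 fold changes of -0.27, -0.33, -0.32 and -0.47 in doubles, beside -0.49, -0.55, -0.58 and -0.57 in Ptpmt1 knockout libraries. After Lmod2 the most negative were Tcap (-0.67) and Cmya5 (-0.47); the most positive were Myom2 (0.64), Xirp2 (0.48) and Pdlim5 (0.18). Lmod2 was lost with a sex term, and without control replicate 1, control replicate 2, double replicate 1 or double replicate 3 (adjusted p over all alternatives 1.76e-06 to 0.170), while its log2 fold change was -1.03 to -0.82 over the same alternatives. DESeq2 called 4 (Lmod2, Myl2, Mybpc3 and Cmya5; all genes, 0.669%). By unadjusted p, 14 were lower and 0 higher, against 5.41% and 4.69% of all genes. Of the erythroid markers 9 of 10 were below 0, with sums of 6214 to 9117 in doubles and 5733 to 22539 in controls; their part was not tested.

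Double against Ptpmt1 knockout compares the knockout with and without the Eif2a mutation, and 0 of 38 genes were called, against 0.878% of all genes. Log2 fold changes were below 0 for 12 of 38, against 50.8% of all genes, and above 0 for the other 26, with a median of 0.10. That median was 0.013 without Ptpmt1 knockout replicate 2 and 0.028 without double replicate 2. By unadjusted p under 0.05, 5 were higher (Mylk3, Xirp1, Des, Synpo2l and Ryr2; all genes, 6.76%) and 2 lower (Lmod2 and Gja1; all genes, 7.02%). Des and Mylk3 had all doubles above all Ptpmt1 knockout libraries, by 0.22 ± 0.086 (adjusted p = 0.273) and 0.26 ± 0.089 (adjusted p = 0.193). The largest log2 fold changes were 0.67 for Myom2, 0.34 for Ryr2 and 0.28 for Jph2 above 0, and -0.44 for Lmod2, -0.34 for Gja1 and -0.30 for Casq2 below. edgeR and DESeq2 also called 0. Without both FST libraries that stand apart, limma called Lmod2 (-0.54, adjusted p = 0.0489), when 92 of all 13896 genes were called. Without Ptpmt1 knockout replicate 3, limma called Jph2 (0.52, adjusted p = 0.0419), when 2.35% of all genes were called. All 8 fibroblast markers tested were below 0, with sums of 10306 to 13533 in doubles and 12163, 11682 and 23112 in Ptpmt1 knockout replicates 1, 2 and 3, of which replicate 3 alone lay above the range of the doubles; their part was not tested.

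Eif2a mutant against control also had 0 of 38 called (all genes, 0.036%; by unadjusted p, 3 lower and 0 higher, against 3.85% and 4.12% of all genes; edgeR 0, DESeq2 1). Of the thin filament genes 6 of 6 were below 0, with a median of -0.15, and 7 of 9 calcium handling genes were above 0, with a median of 0.14. The largest log2 fold changes were -0.60 ± 0.15 for Lmod2, -0.48 ± 0.19 for Tcap and -0.26 ± 0.093 for Myl2, and above 0 they were 0.31 ± 0.35 for Xirp2, 0.24 ± 0.14 for Nebl and 0.22 ± 0.13 for Slc8a1. DESeq2 called Lmod2 (-0.57, adjusted p = 0.0376; all genes, 0.338%).

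Double against Eif2a mutant, which differ by the Ptpmt1 knockout, had 0 of 38 called by limma, against 0.0072% of all genes, with 10 lower and 0 higher at an unadjusted p under 0.05 (all genes lower, 4.25%). Log2 fold changes were below 0 for 30 of 38, against 49.6% of all genes, with a median of -0.13. The most negative were Casq2 (-0.53), Synpo2l (-0.45) and Atp2a2 (-0.41), and the most positive Myom2 (0.89), Ttn (0.23) and Xirp2 (0.17). Atp2a2 was called by DESeq2 (-0.41, adjusted p = 0.0079; all genes, 0.158%) and not by limma (adjusted p = 0.367) or edgeR. The interaction, the test of whether the Ptpmt1 knockout effect differed with the Eif2a mutation, called 0 of 38 (all genes, 0.0216%), with 0 also by edgeR and DESeq2. Des alone had an unadjusted p under 0.05, with 0.30 ± 0.12 (adjusted p = 0.681), from the limma fit across all genes. The largest interactions were 0.92 for Myom2, 0.44 for Tcap and 0.34 for Nrap above 0, and -0.39 for Casq2, -0.34 for Xirp2 and -0.29 for Smpx below.

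In PHT no gene of the 38 was called by limma, edgeR or DESeq2 in any of 6 comparisons. Ptpmt1 knockout against control had a median log2 fold change of -0.049 (all genes called, 0.301%), which was 0.012 without control replicate 1 and -0.10 without control replicate 2. At an unadjusted p under 0.05, 1 gene was higher, Gja1 (0.22 ± 0.095; all genes, 2.69%), and 1 lower, Actn2 (-0.23 ± 0.11; all genes, 2.1%). The 4 genes that fell in FST had log2 fold changes here of -0.13 ± 0.081 for Des, -0.17 ± 0.085 for Xirp1, -0.0015 ± 0.094 for Synpo2l and -0.061 ± 0.13 for Cmya5. Intervals of 95% around the PHT levels, as a share of control, were 80.9 to 103% for Des, 78.4 to 101% for Xirp1, 87.0 to 115% for Synpo2l and 79.0 to 116% for Cmya5. Levels of 71.2%, 68.5%, 66.8% and 67.4% were measured in FST, given here as single estimates without their intervals. The 4 genes were picked because they passed the test in FST. The difference between the tables was not tested, since they were normalized separately. In PHT, sex was male in 2 of 2 doubles, 1 of 3 Ptpmt1 knockout libraries, 2 of 2 Hri knockout libraries and 0 of 2 controls. Doubles and Hri knockout libraries thus share no sex with the controls, and in those libraries alone sex and genotype cannot be told apart. A term for sex, which rests on the Ptpmt1 knockout libraries, also called 0 of 38 in each PHT comparison. Erythroid sums were 8889.6 to 40379 in Ptpmt1 knockout libraries and 47526 to 59071 in controls, and their part was not tested.

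Values in PHT were as follows for the thin and thick filament. Actc1 had 92169 and 107440.0 in doubles, 93874, 91780.3 and 102575 in Ptpmt1 knockout libraries, 91166 and 100602 in Hri knockout libraries, and 102019 and 92146 in controls. Tnnt2 had 26075 and 24797 in doubles, 26378, 24650.3 and 25595 in Ptpmt1 knockout libraries, 29642 and 27349.8 in Hri knockout libraries, and 28154 and 24884 in controls. Tnni3 had 3502 and 4466 in doubles, 4093, 3885 and 4197 in Ptpmt1 knockout libraries, 3979.6 and 4338 in Hri knockout libraries, and 4321 and 3516 in controls. For these 3 genes the Ptpmt1 knockout libraries and the doubles overlapped the controls. Lmod2 had 1136 and 1235 in doubles, 1149, 1168 and 1220.5 in Ptpmt1 knockout libraries, 1214 and 1445 in Hri knockout libraries, and 1154 and 1005 in controls. Both Hri knockout libraries were above both controls, with 0.30 ± 0.10 (adjusted p = 1.0, limma). Myl2 had 43822 and 50478 in doubles, 39280.0, 38106 and 44642 in Ptpmt1 knockout libraries, 43619.7 and 46499 in Hri knockout libraries, and 48068 and 41225 in controls. Mybpc3 had 27688 and 28172 in doubles, 25342, 24136 and 27181 in Ptpmt1 knockout libraries, 28819 and 27281 in Hri knockout libraries, and 30678 and 25476 in controls. Ttn had 413681 and 334850.0 in doubles, 392115, 365008 and 393001 in Ptpmt1 knockout libraries, 529653 and 355949 in Hri knockout libraries, and 402470.0 and 377326 in controls. The 4 groups overlapped for Ttn, and for Mybpc3 the doubles lay above the Ptpmt1 knockout libraries by 0.13 ± 0.11 (adjusted p = 0.817).

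At the Z-disc in PHT, Actn2 had 16439 and 15106 in doubles, 14262, 13252 and 15836 in Ptpmt1 knockout libraries, 16840.0 and 15205 in Hri knockout libraries, and 18249 and 15662 in controls. Control replicate 1 was the highest library. Tcap had 433 and 466 in doubles, 487, 349 and 445 in Ptpmt1 knockout libraries, 405 and 446 in Hri knockout libraries, and 453 and 344 in controls. Des had 8829 and 9089.9 in doubles, 9084, 9130.4 and 9176 in Ptpmt1 knockout libraries, 9154 and 9612 in Hri knockout libraries, and 10609 and 9429 in controls. Ptpmt1 knockout libraries and doubles lay below both controls for Des, by -0.13 ± 0.081 and -0.16 ± 0.089 on the log2 scale (adjusted p = 0.999 and 0.773). Xirp1 had 4102 and 3723 in doubles, 3625, 3699 and 4004 in Ptpmt1 knockout libraries, 4354 and 3936 in Hri knockout libraries, and 4466 and 4036 in controls, and the Ptpmt1 knockout libraries were again below both controls. Synpo2l had 5302 and 4495 in doubles, 4769.9, 4429 and 4915 in Ptpmt1 knockout libraries, 5398 and 4875 in Hri knockout libraries, and 5019 and 4411 in controls. Cmya5 had 939 and 677 in doubles, 974, 929 and 766 in Ptpmt1 knockout libraries, 1025 and 917 in Hri knockout libraries, and 937 and 910.1 in controls. Neither separated the groups, and the second double was the lowest library for Cmya5.

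Among the PHT calcium genes, Casq2 had 655 and 653 in doubles, 330.1, 347 and 597 in Ptpmt1 knockout libraries, 858 and 789 in Hri knockout libraries, and 715 and 410.3 in controls. Double against Ptpmt1 knockout was 0.68 ± 0.23 (adjusted p = 0.379, limma), the largest of the 38, with both doubles above all Ptpmt1 knockout libraries. Myoz2, which binds alpha-actinin and calcineurin, had 1125 and 1155 in doubles, and 784, 758 and 1037 in Ptpmt1 knockout libraries, a difference of 0.42 ± 0.13. Nrap had 1896 and 1859 in doubles, and 1272, 1227 and 1639.7 in Ptpmt1 knockout libraries, a difference of 0.46 ± 0.15 on the log2 scale. These 3 were the genes higher at an unadjusted p under 0.05 in this comparison (all genes called, 0.327%; higher by unadjusted p, 3.84%), and 0 were lower. Without Ptpmt1 knockout replicate 3, Casq2 (0.95, adjusted p = 0.0255) and Myoz2 (0.56, adjusted p = 0.0346) were called (0.408% of all genes). The erythroid sums of the same libraries were 60289 to 105538 in doubles and 8889.6 to 40379 in Ptpmt1 knockout libraries, the lowest being replicate 3; their part was not tested. The most negative in this comparison were Myom2 (-0.58), Ldb3 (-0.18) and Ryr2 (-0.17).

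Pln had 6549 and 7127 in doubles, 6045, 5699.7 and 7055 in Ptpmt1 knockout libraries, 6737 and 6741 in Hri knockout libraries, and 5849 and 6326 in controls in PHT. Both doubles and both Hri knockout libraries were above both controls, from which they also differ in sex. Atp2a2 had 24129 and 21058 in doubles, 25501, 26575 and 23375 in Ptpmt1 knockout libraries, 24808 and 23398 in Hri knockout libraries, and 24829 and 23969.6 in controls. Ryr2 had 18135 and 13448 in doubles, 18267, 17942 and 16717 in Ptpmt1 knockout libraries, 17395 and 14366 in Hri knockout libraries, and 18313 and 18015 in controls. Both Hri knockout libraries lay below both controls for Ryr2, and the second double was the lowest of the 9. Cacna1c had 7087 and 5241 in doubles, 6843, 6251 and 6963 in Ptpmt1 knockout libraries, 7092 and 5667 in Hri knockout libraries, and 7123 and 6857 in controls. Slc8a1 had 39579.8 and 35005 in doubles, 39852, 39556 and 38058 in Ptpmt1 knockout libraries, 37085 and 37676 in Hri knockout libraries, and 37618 and 39686 in controls. Its groups overlapped, and its log2 fold changes were -0.073 to 0.019 over the 6 comparisons. Gja1 had 5591 and 5958 in doubles, 5320.5, 5260.1 and 6448 in Ptpmt1 knockout libraries, 5799.9 and 5505 in Hri knockout libraries, and 5072 and 4630.3 in controls. All 7 mutant libraries exceeded both controls, by 0.25 ± 0.10 in doubles, 0.22 ± 0.095 in Ptpmt1 knockout libraries and 0.22 ± 0.10 in Hri knockout libraries (adjusted p = 0.740, 0.999 and 1.0).

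The other PHT comparisons called 0 of 38 against 0.02% of all genes in Hri knockout against control, 0.0267% in double against control, 0.02% in double against Hri knockout and 0.12% for the interaction. By unadjusted p they had 3 higher (Lmod2, Casq2 and Gja1), 1 higher (Gja1), 1 higher (Xirp2) and 0. Of all genes, 1.91%, 3.09% and 2.6% were higher by unadjusted p in the first 3. In Ptpmt1 knockout against control the largest log2 fold changes were 0.51 for Xirp2, 0.38 for Myom2 and 0.22 for Gja1 above 0 and -0.40 for Casq2, -0.23 for Actn2 and -0.19 for Jph2 below. In Hri knockout against control they were 0.60 for Casq2, 0.30 for Lmod2 and 0.22 for Gja1 above 0 and -0.74 for Myom2, -0.40 for Xirp2 and -0.20 for Ryr2 below. In double against control they were 0.48 for Xirp2, 0.29 for Myoz2 and 0.27 for Casq2 above 0 and -0.23 for Jph2, -0.22 for Ryr2 and -0.21 for Cmya5 below. These include a low gene: Xirp2 had 44.3 and 55.2 in doubles, 53.6, 45.8 and 53.0 in Ptpmt1 knockout libraries, 39.1 and 17.9 in Hri knockout libraries, and 43.3 and 28.6 in controls. In double against Hri knockout they were 0.87 for Xirp2, 0.54 for Myom2 and 0.15 for Csrp3 above 0 and -0.33 for Casq2, -0.28 for Cmya5 and -0.22 for Ttn below, and for the interaction 0.36 for Xirp2, 0.31 for Nrap and 0.24 for Myoz2 above 0 and -0.29 for Lmod2, -0.22 for Cmya5 and -0.20 for Ttn below.

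PTGC holds 1 comparison, Ptpmt1/Gcn2 double against control, and limma and edgeR called 0 of 38, against 0.743% of all genes by limma. The median log2 fold change was -0.031 (-0.068 without double replicate 3 and -0.065 without control replicate 2), and 24 of 38 were below 0 (all genes, 49.5%). At an unadjusted p under 0.05, 3 were higher (Xirp2, Flnc and Cacna1c; all genes, 5.71%) and 6 lower (Pln, Smpx, Mylk3, Trdn, Tnni3k and Casq2; all genes, 5.8%). DESeq2 called Mylk3 (-0.40, adjusted p = 0.0162; all genes, 1.27%). The largest log2 fold changes were 0.70 for Xirp2, 0.46 for Myom2 and 0.45 for Flnc above 0 and -0.52 for Pln, -0.47 for Smpx and -0.41 for Mylk3 below. Erythroid marker sums were 16672 to 21338 in doubles and 19129 to 52418 in controls, with 10 of 10 markers below 0; their part was not tested. The 4 genes that fell in FST had log2 fold changes of -0.025 ± 0.11 for Des, 0.17 ± 0.11 for Xirp1, 0.057 ± 0.10 for Synpo2l and -0.23 ± 0.11 for Cmya5. The table holds neither single mutant, so the knockout of Ptpmt1 and that of Gcn2 cannot be told apart here.

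Pln had 7461, 7055 and 7379.6 in doubles, and 10169, 7906 and 14364 in controls. The doubles were all lower than the controls, among which replicate 3 was the highest, and the log2 fold change was -0.52 ± 0.17 (adjusted p = 0.328, limma). The small muscle protein Smpx had 2959, 2699.5 and 3225 in doubles, and 4000.5, 3077 and 5546 in controls, also with its highest value in control replicate 3, and a log2 fold change of -0.47 ± 0.17. Trdn had 1444, 1244 and 1491 in doubles, and 1818, 1361 and 2508 in controls, with the same library highest (-0.40 ± 0.18). Mylk3, the kinase of the regulatory light chain, had 4098, 3525 and 3738 in doubles, and 4952, 4901 and 5189.7 in controls. Here the controls lay close together and above all doubles, and the log2 fold change was -0.41 ± 0.095 (adjusted p = 0.118). Without control replicate 2, limma called Pln, Smpx, Trdn, Mylk3 and the troponin I-binding kinase Tnni3k lower and Flnc higher, when 3.79% of all genes were called. Flnc had 11633, 16696 and 13939 in doubles, and 9486, 12613 and 8863 in controls (0.45 ± 0.16), and Xirp2, the most positive, had 106, 80.7 and 92.4 in doubles, and 67.0, 39.7 and 67.3 in controls (0.70 ± 0.23).

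Actc1 had 107722, 95515 and 104863 in doubles, and 120995, 114084 and 122962 in controls. The doubles were lower in every library, by -0.22 ± 0.14 (adjusted p = 0.518). Tnnt2 had 30285, 28828 and 29259 in doubles, and 28823, 29623 and 30134 in controls. Tnni3 had 4391, 4393 and 4592 in doubles, and 4679.8, 4393 and 4768 in controls. Lmod2 had 1574, 1377 and 1429 in doubles, and 1597, 1517 and 1587 in controls. These 3 thin filament genes overlapped between groups. Myl2 had 49805, 47225 and 57758 in doubles, and 55360.2, 52486 and 66733 in controls. Mybpc3 had 26495, 27443 and 27731 in doubles, and 25851, 29550.5 and 24712 in controls. Ttn had 574552, 705601 and 588143 in doubles, and 618766, 578037 and 434752 in controls. The thick filament genes other than Mylk3 overlapped too, Myl3 among them. Actn2 had 16215, 16968 and 16536 in doubles, and 15679, 16734 and 15062 in controls. Tcap had 419.5, 373 and 463 in doubles, and 463, 418 and 359 in controls. Des had 8201, 9090.0 and 9795 in doubles, and 9715, 9418 and 8399 in controls. Their log2 fold changes were 0.068 for Actn2, 0.020 for Tcap and -0.025 for Des. Xirp1 had 3802, 4275 and 4046 in doubles, and 3316, 4140.1 and 3395 in controls. Synpo2l had 4458, 4741 and 5029 in doubles, and 4463, 5077 and 4165 in controls. Cmya5 had 957, 1134 and 1076 in doubles, and 1206, 1127 and 1383 in controls. No group stood clear for these Z-disc genes.

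For calcium handling in PTGC, Ryr2 had 17159.8, 18215 and 16389.9 in doubles, and 15088, 16384 and 16027 in controls. Its doubles were just above the controls, by 0.12 ± 0.10 (adjusted p = 0.608). Cacna1c had 6361, 6752 and 5474 in doubles, and 5282, 5546 and 4804 in controls. Casq2 had 742, 899.5 and 681 in doubles, and 991, 823 and 1088 in controls. Log2 fold changes were 0.25 ± 0.11 for Cacna1c and -0.32 ± 0.13 for Casq2, both with overlap. Slc8a1 had 49399, 45928 and 48858 in doubles, and 46989, 45886 and 62018 in controls. Atp2a2 had 23244, 24666 and 24612 in doubles, and 22913, 24431 and 28572 in controls. Gja1 had 7575, 6532 and 7550.4 in doubles, and 6878, 6266 and 8809 in controls. For each of these 3 genes the highest library was control replicate 3, which had also been highest for Pln, Smpx and Trdn, and the groups overlapped.

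**Figure D4:**
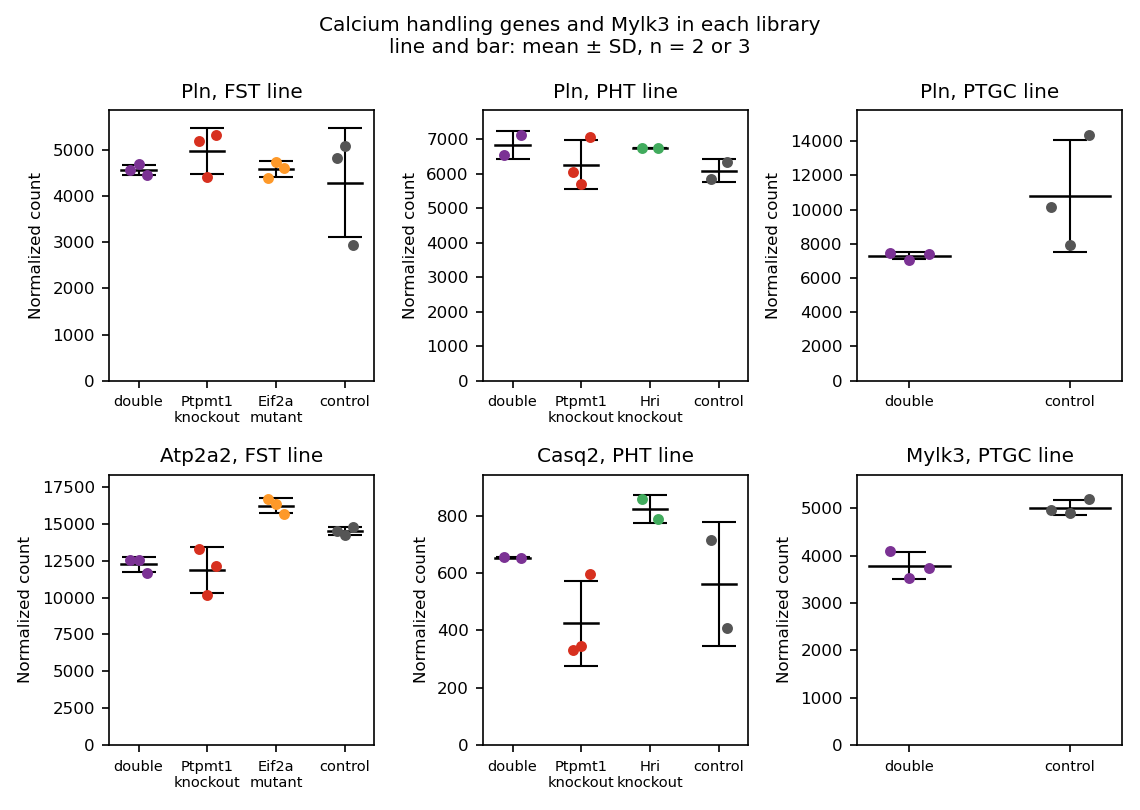
Normalized counts by library and group of Pln in FST, PHT and PTGC, Atp2a2 in FST, Casq2 in PHT and Mylk3 in PTGC; points are libraries, lines are group means and bars are ± SD, and the vertical scale differs between tables, which were normalized separately. Pln lies above the controls in the PHT doubles and below them in the PTGC doubles, and in FST its groups overlap.

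Ratios within a library do not depend on its scaling and are described without a test, as log2 of one gene's normalized counts over the other's. Pln over Atp2a2, inhibitor over pump, was -1.46, -1.42 and -1.39 in FST doubles, -1.35, -1.21 and -1.19 in Ptpmt1 knockout libraries, -1.92, -1.78 and -1.76 in Eif2a mutants and -1.59, -1.48 and -2.33 in controls. The doubles and Ptpmt1 knockout libraries were above all 3 controls and the Eif2a mutants lay within their range. In PTGC the same ratio was -1.64, -1.81 and -1.74 in doubles and -1.17, -1.63 and -0.99 in controls, with all doubles below all controls. In PHT it was -1.88 and -1.56 in doubles, -2.08, -2.22 and -1.73 in Ptpmt1 knockout libraries, -1.88 and -1.80 in Hri knockout libraries and -2.09 and -1.92 in controls, so that the doubles and Hri knockout libraries lay above both controls.

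Tnni3 over Tnni1, adult over slow skeletal troponin I, stood at -1.64, -1.66 and -1.49 in FST doubles, -1.73, -1.79 and -1.45 in Ptpmt1 knockout libraries, -1.65, -1.57 and -1.58 in Eif2a mutants and -1.59, -1.56 and -1.67 in controls. It was below 0 in all 27 libraries. Myl2 over Myl7, ventricular over atrial light chain, was 1.73, 1.85 and 2.0 in FST doubles, 2.25, 1.94 and 2.92 in Ptpmt1 knockout libraries, 1.97, 1.79 and 1.84 in Eif2a mutants and 2.60, 2.73 and 1.84 in controls. Actc1 over Acta1, cardiac over skeletal actin, was 4.51, 4.57 and 4.65 in doubles, 5.09, 5.23 and 5.89 in Ptpmt1 knockout libraries, 4.32, 4.65 and 4.67 in Eif2a mutants and 5.65, 5.73 and 4.53 in controls. In both ratios Ptpmt1 knockout replicate 3 was the highest library and control replicate 3 was the lowest of its group. Ryr2 over Casq2 ranged over 3.75 to 6.22 in FST, with Ptpmt1 knockout replicate 3 and control replicate 3 at the ends. Slc8a1 over Atp2a2 was 1.19, 1.45 and 1.22 in FST doubles, 1.2, 1.49 and 0.98 in Ptpmt1 knockout libraries, 1.18, 0.92 and 0.91 in Eif2a mutants and 0.98, 0.96 and 0.89 in controls. All 3 doubles, Ptpmt1 knockout replicates 1 and 2 and Eif2a mutant replicate 1 lay above every control. Tnnt2 over Tnni3 stayed within 2.57 to 3.06 in FST.

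The gene's span on the chromosome was not used to choose the members and is set against the differences as a description. Of the 38, 10 span 100 kb or more (Ttn, Myom1, Nebl, Cmya5, Pdlim5, Tnni3k, Ryr2, Cacna1c, Slc8a1 and Trdn). In FST their median log2 fold change was 0.056 in doubles and -0.10 in Ptpmt1 knockout libraries against control, while the 28 shorter genes had -0.25 and -0.28. Spearman's rho between log2 fold change and span was 0.40 over the 38 genes for Ptpmt1 knockout against control and 0.54 for double against control, beside 0.14 and 0.023 over 13773 genes with a span. For FST Eif2a mutant against control, which holds no Ptpmt1 knockout, rho was 0.45 over the 38 genes and 0.066 over 13773. In PHT Ptpmt1 knockout against control rho was -0.11 over the 38 genes and -0.012 over 14806. Over the 38 genes it was -0.42 for PHT double against control and -0.41 for PHT double against Ptpmt1 knockout. It was -0.34 for PHT Hri knockout against control and 0.11 for PTGC double against control. By library, the long genes had the higher median deviation in all 3 FST doubles and in Ptpmt1 knockout replicates 1 and 2, and the lower one in Ptpmt1 knockout replicate 3, and the 2 libraries that stand apart had the highest medians of the long genes. The genes share libraries and controls, so these values describe the tables and carry no p. Span moves with role, since Ryr2, Cacna1c, Slc8a1 and Trdn, 4 of the 9 calcium handling genes, are in the long class, and its part in the differences was not tested.

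**Figure D5:**
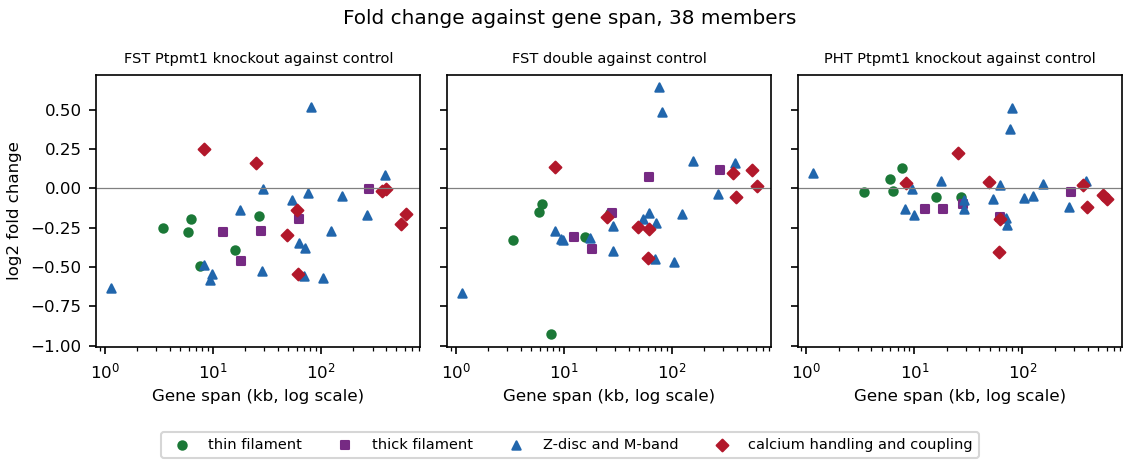
Log2 fold change against control (vertical axis) by gene span in kb (log axis) for the 38 genes in 3 comparisons, with colours and shapes for the roles. In the FST panels the genes below 100 kb sit lower, at medians of -0.28 in Ptpmt1 knockout libraries and -0.25 in doubles.

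Other genes of the pathway were read from lists, with no test of a list. For Ptpmt1 knockout against control, of other sarcomere genes (33 tested, 0 higher and 1 lower) the median log2 fold change was -0.21. It was -0.31 for assembly and turnover genes (16 tested, 0 higher and 1 lower), -0.12 for other calcium handling genes (39 tested, 0 higher and 0 lower), -0.065 for intercalated disc genes (12 tested, 0 higher and 1 lower) and -0.13 for cardiac transcription factors (14 tested, 0 higher and 0 lower). These counts of calls stand against the 0.504% of all genes above. The called genes were Obsl1, which encodes a cytoskeletal adaptor protein, with 2044, 1721 and 2123 in Ptpmt1 knockout libraries, and 2621, 2669 and 2736 in controls (-0.45 ± 0.086, adjusted p = 0.0308), the striated muscle kinase Speg, with 1539, 1400.3 and 1432 in Ptpmt1 knockout libraries, and 1938, 1920.0 and 2116 in controls (-0.45 ± 0.091, adjusted p = 0.0462), and connexin 40 (Gja5), with 1078, 811 and 1057 in Ptpmt1 knockout libraries, and 1762, 1902 and 1407 in controls (-0.78 ± 0.13, adjusted p = 0.0109). For all 3 the Ptpmt1 knockout libraries lay below the controls. In FST Eif2a mutants and doubles against control Gja5 had -0.52 ± 0.13 and -0.53 ± 0.13 (adjusted p = 0.303 and 0.153, limma). In the same 2 comparisons Obsl1 had -0.12 and -0.23, and Speg 0.017 and 0.012. In PHT Ptpmt1 knockout against control the log2 fold changes were -0.091 for Gja5, -0.18 for Obsl1 and -0.067 for Speg. In PTGC doubles against control they were -0.48 ± 0.11 for Gja5 (adjusted p = 0.101, limma), 0.23 for Obsl1 and 0.36 for Speg.

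In FST doubles against Ptpmt1 knockout, other sarcomere genes (33 tested, 3 higher and 0 lower) and assembly genes (16 tested, 1 higher and 0 lower) held the calls, against 0.878% of all genes. Mybphl, an atrial relative of myosin-binding protein C that is also in the atrial list, had 217, 177 and 198 in doubles, 97.1, 119 and 72.6 in Ptpmt1 knockout libraries, 198, 187 and 195 in Eif2a mutants, and 112, 121 and 168 in controls (1.05 ± 0.19, adjusted p = 0.0155). Myh7b, a myosin heavy chain, had 1085, 1056 and 1258 in doubles, and 871, 747 and 866 in Ptpmt1 knockout libraries (0.45 ± 0.10, adjusted p = 0.0423). Against control, Myh7b had -0.35 ± 0.098 in Ptpmt1 knockout libraries and 0.10 ± 0.098 in doubles (adjusted p = 0.138 and 0.767, limma). Speg had 1962, 1998 and 2062 in doubles, and 1539, 1400.3 and 1432 in Ptpmt1 knockout libraries (0.46 ± 0.091, adjusted p = 0.0260). These 3 rose in doubles relative to the Ptpmt1 knockout. The atrial marker sums were 32837 to 34652 in doubles and 27842 to 33693 in Ptpmt1 knockout libraries, and 7 of 8 atrial genes tested were above 0; their part was not tested. Among marker genes, endoglin (Eng, endothelial) rose in doubles against Ptpmt1 knockout (0.50 ± 0.080) and against control (0.44 ± 0.080). Of 10 endothelial genes, 7 and 5 were above 0 in these comparisons (all genes called, 0.878% and 0.144%). The atrial ligand Bmp10 rose against control in doubles (0.55 ± 0.083) and in Eif2a mutants (0.55 ± 0.083). Of 8 atrial genes, 5 and 7 were above 0 there (all genes called, 0.144% and 0.036%). The mural gene Cspg4 fell in Ptpmt1 knockout libraries against control (-0.53 ± 0.091), where 6 of 9 mural genes were below 0 and 3 above (all genes called, 0.504%). The part of these cells was not tested. Of the 5 pathway lists, 0 genes were called in FST double, or Eif2a mutant, against control, in any PHT comparison, and in PTGC.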

How the data were processed

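RNA of mouse cardiomyocytes was sequenced after ribosomal RNA removal with a KAPA kit, per the labels' protocols. The deposited values are a normalized signal per gene and library, made by the authors; STAR 2.5.3a, DESeq2 1.12.4 and mm10 are named in the submitters' processing notes, with roles, read counter, annotation and strand setting not given in the sources used here. Every column holds whole multiples of 1 step, so reads were recovered (100% whole within 0.1). Tables were normalized separately and are not compared in level; 26 symbols had turned into dates.

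Genes reaching a value of 10 in as many libraries as the smallest group were tested (13896, 14965 and 14128 in FST, PHT and PTGC) with limma 3.58.1 in R 4.3.3 with an intensity trend on log2(value + 1), 1 fit per table, two-sided, Benjamini-Hochberg over all genes tested, threshold 0.05. This scale understates changes of low genes. Alternatives were edgeR 4.0.16 and DESeq2 1.42.0 on recovered reads, log2(value + 5), no filter, TMM scaling, only the compared groups, a sex term, each library left out, and both FST libraries that stand apart left out. The fit was also run on simulated counts with the same dispersion for every gene and no outlying library or sex effect. That run therefore does not bear on how the calls depend on single libraries or sex.

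The members and lists were chosen with earlier results of these data known. All 38 members are accounted for by role; called members and a panel of 16 are given in every library, with the 3 largest log2 fold changes each way per comparison. Of the calls, 1 in the list of other sarcomere genes is counted but not reported here. Depth limits precision, and p-values cover the spread between libraries only.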

Additional observations from a re-analysis of the deposited data

Results flagged for a closer look

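Pln is a result in which 2 tables moved in opposite directions under a double mutant against its control. In PHT it had 6549 and 7127 in doubles, and 5849 and 6326 in controls, with every double above every control and a log2 fold change of 0.17 (adjusted p = 0.790, limma). Both PHT doubles were male and both controls female, so in these libraries alone sex and genotype cannot be told apart. With a sex term, which rests on the Ptpmt1 knockout libraries, the log2 fold change was 0.24 (adjusted p = 1.0, limma). In PTGC it had 7461, 7055 and 7379.6 in doubles, and 10169, 7906 and 14364 in controls, with every double below every control and a log2 fold change of -0.52 (adjusted p = 0.328, limma). The doubles carry different second knockouts (Hri in PHT, Gcn2 in PTGC), neither change passed the test, and the difference between them was not tested.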

How the results depend on the processing

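No paired analysis was possible because the labels give no replicate numbers. Over 494 pairs of gene and comparison, 6536 alternative values were computed. Of these, 6038 kept direction and side of the threshold, 32 lost a call, 38 gained one, 0 of the called values changed sign, and 428 changed sign with no call on either side. Of the 38 members, Ptpmt1 knockout against control in FST called 4, against 2 with no filter on low values, 0 with a sex term, 0 with only the compared groups, 13 by DESeq2 and 0 to 16 with 1 library left out. Double against control in FST called 1, against 0 with a sex term, 4 by DESeq2 and 0 to 1 with 1 library left out. Without both FST libraries that stand apart, double against Ptpmt1 knockout went from 0 to 1, beside 92 of all 13896 genes called. The counts that were 0 also became 1 by DESeq2 in Eif2a mutant against control, in double against Eif2a mutant and in PTGC. With 1 library left out they ranged over 0 to 1 in FST double against Ptpmt1 knockout, 0 to 2 in PHT double against Ptpmt1 knockout and 0 to 6 in PTGC; the other comparisons stayed at 0. Where a library left out leaves 1 in a PHT group, it is assumed to vary like the others. The causes were not tested. The median log2 fold change of the 38 in FST Ptpmt1 knockout against control was -0.24, -0.24 with TMM scaling, and -0.36 to -0.20 with 1 library left out. FST double replicate 2 has the lowest depth, which limits its low genes such as Xirp2 and Myom2.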
